A study of Mus musculus with 12 samples.

Results

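The core circadian clock genes were measured in liver RNA sequencing libraries of 12 C57BL/6 mice. The 10 genes were chosen by symbol from the 41128 genes of the table and all 10 were found: Arntl, Clock and Npas2, called the activators here, and Per1, Per2, Per3, Cry1, Cry2, Nr1d1 and Nr1d2. All mice were littermates kept in sterile isolators until weaning at about day 21 and killed at 6 weeks of age. Germ-free (GF) mice stayed in the isolators. Conventionalized (CV) mice were housed for 3 weeks with used bedding from the animal facility, which carries microbes. Each condition held 3 mice labelled male and 3 labelled female, with 1 library per mouse. A GF and a CV mouse therefore differed in housing as well as in microbes, and these cannot be told apart. The hour at which livers were taken and the light schedule are not given in the sources used here, so a difference in level and a difference in clock time between the groups cannot be told apart either.

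The circadian clock is a transcriptional feedback loop that runs in nearly every cell, and in liver it times much of metabolism. ARNTL (BMAL1) pairs with CLOCK or NPAS2 and activates genes that carry E-boxes, among them the Per, Cry and Nr1d genes. PER and CRY proteins then inhibit the activators, while the nuclear receptors NR1D1 and NR1D2 (REV-ERBα and REV-ERBβ) repress Arntl, Clock and Npas2 through RORE elements. In a liver sampled around the clock, Arntl and Npas2 peak at nearly the opposite phase from Nr1d1 and the Per genes, with Cry1 later than the Per genes. Each pair of arms was therefore compared within the labelled sexes.

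Values are read counts divided by a size factor for each library, a scaling that sets the bulk of genes to a common level, and are called normalised counts. Libraries held 5993619 to 15290835 reads. In GF livers 41.8 to 69.4% of reads came from 7 abundant loci (mt-Rnr1, mt-Rnr2, Lars2, Mir6236, Gm23935, Gm15564 and Gm42418), against 5.39 to 21.9% in CV livers, so that 1834565 to 5303292 reads remained for other genes in GF and 6943462 to 14411498 in CV. Within CV, the libraries labelled CV male 2 and CV male 3 stood apart at 21.4% and 21.9%. The library labelled CV male 3 held 2622 reads of Xist and 0 of Y-linked genes, which goes against its label, and it is kept below under that label. Hepatocyte markers were high in every library, with 5 of 6 tested higher in CV and summed normalised counts of 94842 to 441680 in GF and 366740 to 596720 in CV. Blood markers were lower in CV for 4 of 5 genes, lymphocyte markers for 3 of 4 tested, and Kupffer cell and macrophage markers higher for 4 of 6. In sum the blood markers spanned 2777 to 32885 in GF and 916 to 3159 in CV, the lymphocyte markers 75.1 to 173.6 and 31.7 to 45.3, and the Kupffer cell and macrophage markers 934 to 2027 and 1368 to 2840. Of the other markers, sinusoidal endothelium had 1 of 5 lower, bile duct 0 of 4 changed by limma, stellate cell 1 higher and 1 lower of 5, and exocrine pancreas 1 higher of 1 tested. No adipose marker was tested, and Lep was at 0 throughout. The part of these shifts in the results below was not tested, and in bulk tissue fewer cells of a type and less RNA per cell cannot be told apart.

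Because the clock loop acts through elements such as E-boxes and ROREs, 4 promoters are shown first. They are RefSeq windows of 300 bases around a start site (GRCm38.p6), 5′ to 3′ on the gene's strand, and capitals mark the motifs found. Per1, Cry1 and Nr1d1 are shown since they carry an E-box or E′-box and differed in direction between the conditions, and Arntl since it carries a RORE core.
Arntl, start site 2, chr7:113207261-113207560, plus strand: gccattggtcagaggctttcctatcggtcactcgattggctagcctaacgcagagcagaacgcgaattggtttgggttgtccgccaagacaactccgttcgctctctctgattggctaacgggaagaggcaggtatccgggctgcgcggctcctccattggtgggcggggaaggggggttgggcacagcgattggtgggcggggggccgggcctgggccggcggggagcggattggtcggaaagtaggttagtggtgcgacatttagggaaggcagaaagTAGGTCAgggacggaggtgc
Per1, start site 1, chr11:69098699-69098998, plus strand: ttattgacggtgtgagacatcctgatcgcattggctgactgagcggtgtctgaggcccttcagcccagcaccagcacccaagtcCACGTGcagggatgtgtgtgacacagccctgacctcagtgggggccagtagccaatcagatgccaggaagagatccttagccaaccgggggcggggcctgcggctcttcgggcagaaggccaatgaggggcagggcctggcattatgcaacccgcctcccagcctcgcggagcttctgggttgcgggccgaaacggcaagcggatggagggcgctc
Cry1, chr10:85185005-85185304, minus strand: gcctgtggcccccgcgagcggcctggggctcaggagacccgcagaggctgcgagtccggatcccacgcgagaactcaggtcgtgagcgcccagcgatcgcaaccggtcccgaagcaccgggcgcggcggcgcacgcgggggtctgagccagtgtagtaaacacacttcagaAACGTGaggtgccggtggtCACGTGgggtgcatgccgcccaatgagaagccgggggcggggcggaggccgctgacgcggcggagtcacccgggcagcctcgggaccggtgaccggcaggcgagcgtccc
Nr1d1, chr11:98775328-98775627, minus strand: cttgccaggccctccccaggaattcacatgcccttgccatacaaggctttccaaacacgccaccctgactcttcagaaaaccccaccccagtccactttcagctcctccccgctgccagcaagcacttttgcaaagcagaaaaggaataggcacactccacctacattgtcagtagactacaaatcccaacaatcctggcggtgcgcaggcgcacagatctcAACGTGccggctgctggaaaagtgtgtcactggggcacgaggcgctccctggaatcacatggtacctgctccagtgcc

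Both strands were searched for the E-box CACGTG, the E′-box CACGTT, the RORE cores TAGGTCA and TGGGTCA, the D-box TTANGTAA and the cAMP response element TGACGTCA. These were present in 7.15%, 4.69%, 6.45%, 2.32% and 1.79% of 32851 promoter windows. The Per1 window held an E-box at position -166 from the start site, Cry1 an E-box at -60 and an E′-box at -79, and Nr1d1 an E′-box at -28. Arntl held a RORE core at 31 bases after its start. Of the windows not shown, Per3 held a D-box at -205 and another at -158, and Cry2 an E′-box at -166. The windows of Clock, Npas2 and Nr1d2 held none of these letters, and Per2 has no entry. Arntl at start site 1 and Per1 at start site 2 held none either. The E-boxes and E′-boxes found were thus all in windows of Per, Cry and Nr1d genes, and the only RORE core was in Arntl. Windows without any motif occurred in both arms, so the motifs did not mark every gene of an arm. A match is a description of the sequence and not of binding.

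Of the 9 tested genes Per1 and Per2 had the largest changes over both sexes. Per1, which encodes a PER inhibitor and responds quickly to hormones and cell signals, is at chr11:69095217-69109960. It read 561, 319 and 289 normalised counts in the GF males and 115, 95.4 and 131 in the CV males. In females it read 536, 420 and 464 in GF and 103, 165 and 116 in CV. No CV library reached the lowest GF library. Over both sexes Per1 fell by 1.81 ± 0.20 (log2, SE, 3 mice a group), a 3.50-fold lower level (limma across 11782 genes, Benjamini-Hochberg adjusted p = 2.31e-06). The change was -1.72 ± 0.28 in males (adjusted p = 9.54e-04) and -1.90 ± 0.28 in females (adjusted p = 4.66e-05).

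**Figure D1:**
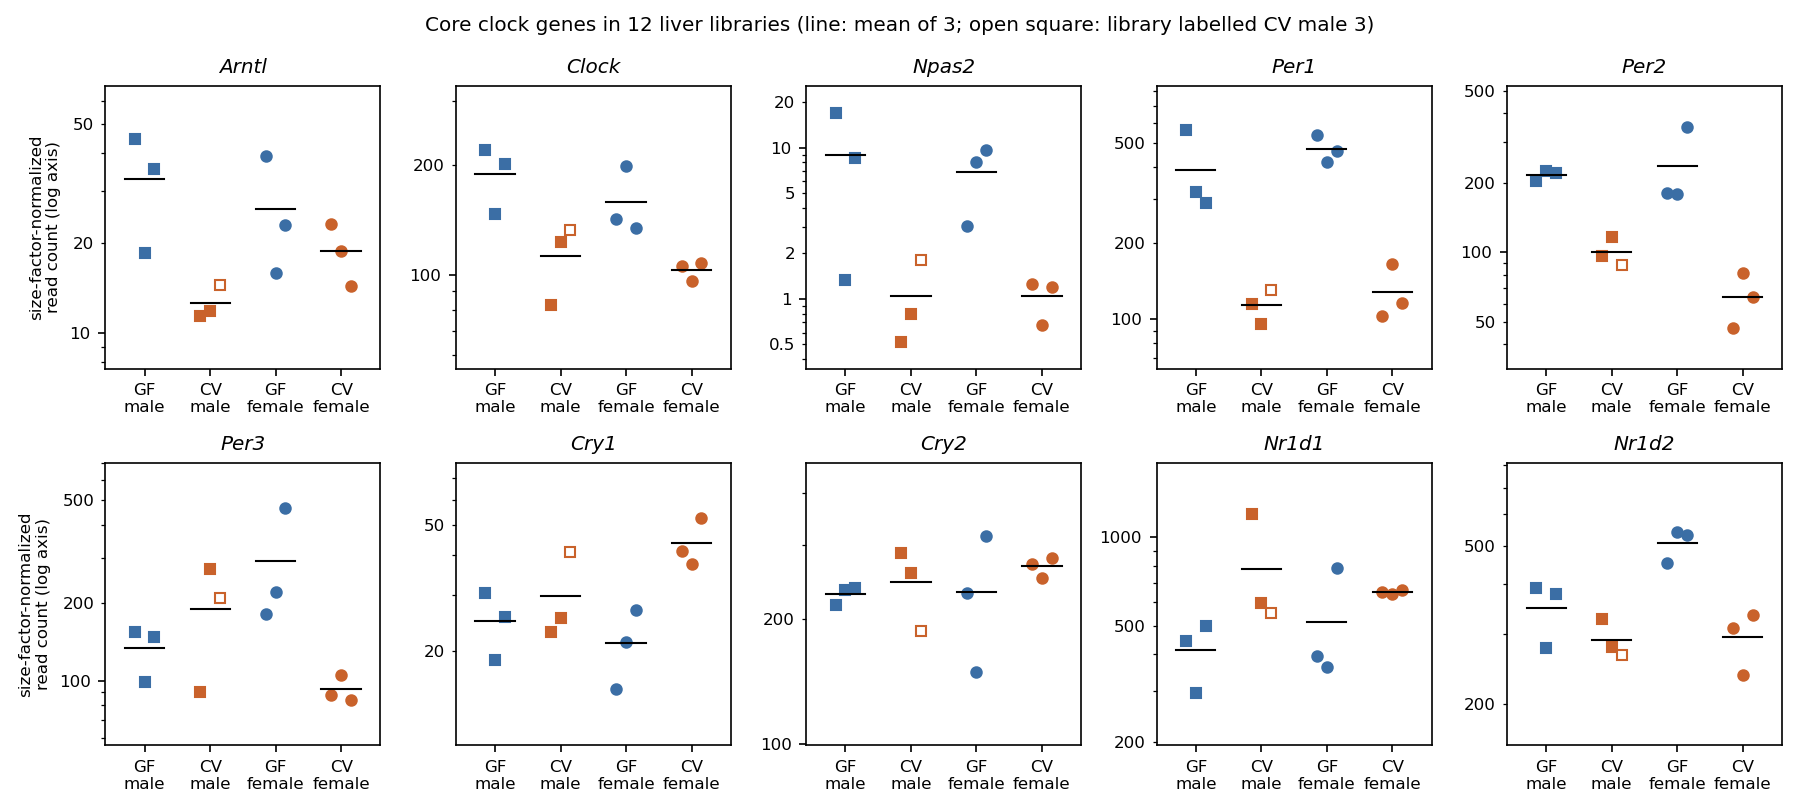
Normalised counts (log axis) of the 10 core clock genes in each of 12 liver libraries, 3 per group, with the group mean as a line and the library labelled CV male 3 as an open square. For Per1, Per2 and, narrowly, Clock (at most 133 in CV, at least 134 in GF) the 6 CV libraries sit wholly below the 6 GF libraries, while Cry2 overlaps in both sexes.

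Per2, the other PER protein needed for rhythm, is at chr1:91415982-91459324. It read 202, 224 and 221 in GF males, 96.3, 116 and 88.1 in CV males, 181, 178 and 349 in GF females and 47.1, 81.3 and 63.8 in CV females. Here too every CV library was below every GF library. Per2 fell by 1.47 ± 0.20 over both sexes (limma adjusted p = 1.66e-05), by 1.11 ± 0.29 in males (adjusted p = 0.0103) and by 1.83 ± 0.29 in females (adjusted p = 8.14e-05). Scaled to all reads the male call was lost (-0.80, adjusted p = 0.0746).

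Per3, which is not needed for rhythm in mice, is at chr4:151003652-151044665 and behaved differently. Males read 154, 98.5 and 147 in GF and 90.6, 270 and 209 in CV, so the groups overlapped. Females read 181, 221 and 468 in GF and 87.9, 105 and 84.3 in CV, with no overlap. This rests on the labels: CV male 3, whose Xist and Y-linked reads go against its label, read 209, above the lowest GF female. Per3 fell in females by 1.52 ± 0.38 (limma adjusted p = 0.00328), which was -0.72 when scaled to all reads (adjusted p = 0.144). The change was 0.40 ± 0.38 in males (adjusted p = 0.456) and -0.56 ± 0.27 over both sexes (adjusted p = 0.0836). Without the library labelled CV male 2 the latter passed (-0.72, adjusted p = 0.0313), as it did without GF female 1 (-0.70, adjusted p = 0.0455), with edgeR and TMM (adjusted p = 0.0485, and 0.0437 with no filter) and when scaled to reads outside the abundant loci (-1.02, adjusted p = 0.0166). The 2 CV males with high Per3 were the 2 CV libraries with over 21% of reads in the abundant loci, and GF female 3, the highest at 468, had the largest such share, 69.4%. The plot of values against that share shows this, and its part in Per3 was not tested beyond the covariate fits given further on.

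**Figure D2:**
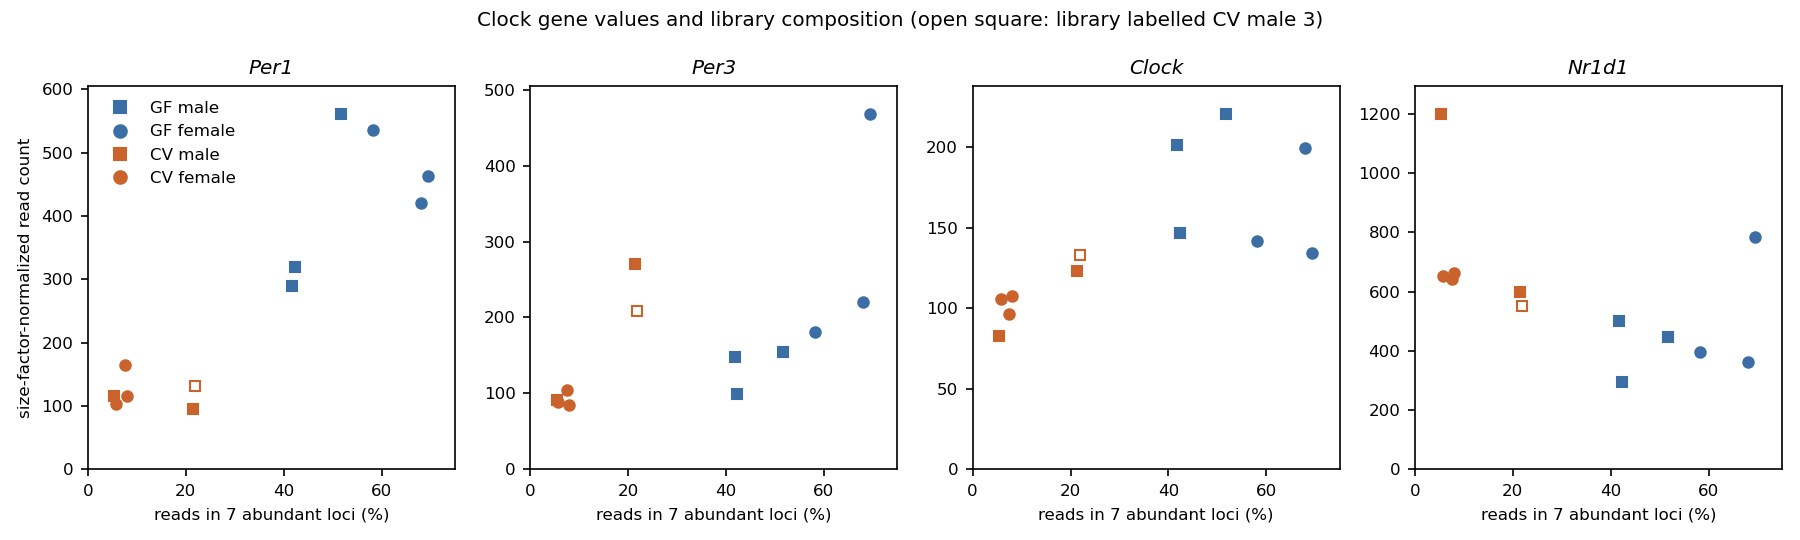
Normalised counts of Per1, Per3, Clock and Nr1d1 in each of 12 libraries against the share of reads (%) in the 7 abundant loci. The GF libraries lie at 41.8 to 69.4% and the CV libraries at 5.39 to 21.9%, so the conditions do not overlap on this axis, and Per3 is higher in the CV libraries at 21.4% and 21.9% (270 and 209) than in the other 4 (84.3 to 105).

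The activators were lower in CV or did not pass. Arntl, the only activator without a substitute, is at chr7:113207465-113314126 and was low in liver, with 6 to 55 reads a library. It read 44.8, 18.6 and 35.4 in GF males, 11.4, 11.9 and 14.5 in CV males, 39.2, 16.0 and 23.0 in GF females and 23.1, 18.8 and 14.5 in CV females. Males did not overlap and females did. Arntl fell by 0.81 ± 0.30 over both sexes (limma adjusted p = 0.0261) and by 1.24 ± 0.42 in males (adjusted p = 0.0366), while females gave -0.38 ± 0.42 (adjusted p = 0.453). The call over both sexes was lost when scaled to all reads (-0.28, adjusted p = 0.502), after thinning to equal reads (-0.62, adjusted p = 0.176) and with no filter on low values (adjusted p = 0.0615). It was also lost without GF male 1, GF male 3, GF female 1 or CV female 3 (adjusted p 0.0583 to 0.0764). The call in males was lost without any of GF male 1, GF male 3, CV male 1, CV male 2, CV male 3 or CV female 2 (adjusted p 0.0503 to 0.164).

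Clock, which encodes the partner of ARNTL, is at chr5:76209868-76304792. It read 220, 146 and 201 in GF males and 82.8, 123 and 133 in CV males. Females read 142, 199 and 134 in GF and 106, 96.1 and 108 in CV, and neither sex overlapped. Clock fell by 0.67 ± 0.18 over both sexes (limma adjusted p = 0.00473) and by 0.75 ± 0.26 in males (adjusted p = 0.0397), and females gave -0.59 ± 0.26 (adjusted p = 0.0611). Its longest transcript was the longest of the 10 genes at 9744 bases, and once the dependence of changes on transcript length and base composition was taken out, the change over both sexes was 0.06 (adjusted p = 0.749). Scaled to all reads it was -0.11 (adjusted p = 0.644). The call in males was lost in leaving out each of GF male 1, GF male 3, CV male 1, CV male 2 or any CV female (adjusted p 0.0510 to 0.147). The female fall passed in 7 of 29 alternatives, among them the fit without CV male 1 (adjusted p = 0.0336).

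Npas2, which can stand in for CLOCK, is at chr1:39193731-39363236 and had only 1 to 19 reads a library, below the minimum mean of 10 normalised counts set for the test. It read 17.0, 1.33 and 8.50 in GF males, 0.52, 0.80 and 1.82 in CV males, 3.02, 7.98 and 9.58 in GF females and 1.26, 0.67 and 1.20 in CV females. Only GF male 2 lay among the CV values. Where lower minimums let it be tested, the change over both sexes was -1.87 with limma (adjusted p = 0.00441 at a minimum mean of 1, and 0.00932 with no minimum), -2.73 with edgeR (adjusted p = 9.25e-04) and -2.94 with DESeq2 (adjusted p = 9.22e-04). At counts this low the size of the change depends on the value added before the log.

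The Cry genes, which encode the strongest inhibitors of the activators, were higher in CV or did not pass. Cry1 is at chr10:85131700-85185064 and had 8 to 98 reads a library. It read 30.4, 18.6 and 25.5 in GF males and 22.9, 25.4 and 40.9 in CV males, which overlapped. Females read 15.1, 21.3 and 26.8 in GF and 41.2, 37.6 and 52.4 in CV, which did not. Cry1 rose in females by 1.04 ± 0.35 (limma adjusted p = 0.0183) and over both sexes by 0.64 ± 0.25 (adjusted p = 0.0342), and males gave 0.23 ± 0.35 (adjusted p = 0.643). The call over both sexes was lost in 16 of 28 alternatives, among them DESeq2, edgeR with its filter (but not edgeR without a filter, adjusted p = 0.0427) and the fits without GF male 2, GF male 3, GF female 1, CV male 3, CV female 1 or CV female 3 (adjusted p 0.0505 to 0.0976). The female call was lost without GF female 1 or CV female 3 (adjusted p 0.0755 and 0.0835). Scaled to reads outside the abundant loci, Cry1 gave 0.19 over both sexes (adjusted p = 0.587) and 0.44 in females (adjusted p = 0.372).

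Cry2, at chr2:92403646-92434043, read 149 to 316 in GF and 187 to 288 in CV, with overlap in both sexes. The change was 0.17 ± 0.19 over both sexes (95% interval -0.23 to 0.57, limma adjusted p = 0.453), and it was negative when libraries were scaled to reads outside the abundant loci (-0.29). Of its exon bases 295 (4.67%) are shared with D930015M05Rik on the other strand, and the strand setting of the counting is not given in the sources used here, so Cry2 is uncertain to that extent.

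The Nr1d genes went opposite ways. Nr1d1, at chr11:98767932-98775333, encodes the main repressor of Arntl. It read 445, 294 and 500 in GF males and 1199, 599 and 551 in CV males, with no overlap. Females read 395, 362 and 786 in GF and 653, 642 and 662 in CV, where GF female 3 lay above all CV females. Nr1d1 rose by 0.65 ± 0.24 over both sexes (limma adjusted p = 0.0255), with 0.86 ± 0.33 in males (adjusted p = 0.0619) and 0.43 ± 0.33 in females (adjusted p = 0.280). The rise was 0.19 when scaled to reads outside the abundant loci (adjusted p = 0.562), and 0.41 with the length and base composition trend removed (adjusted p = 0.0845) and 0.51 after thinning to equal reads (adjusted p = 0.0744). It was also lost without GF male 2, GF female 1, GF female 2 or CV male 1 (adjusted p 0.0596 to 0.0676). The male value passed in 5 of 29 alternatives. These were the fits without CV male 3 (1.07, adjusted p = 0.0406) or GF female 3 (adjusted p = 0.0347), DESeq2 (adjusted p = 0.0363), edgeR without a filter (adjusted p = 0.0124) and scaling to all reads (1.17, adjusted p = 0.0249). It shares 263 exon bases with Thra on the other strand (8.55% of its own), where counts are uncertain in the same way.

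Nr1d2, the paralog with overlapping function, is at chr14:18204054-18239127. It read 391, 277 and 378 in GF males and 326, 277 and 266 in CV males, which overlapped. Females read 451, 540 and 533 in GF and 310, 236 and 335 in CV, which did not. Nr1d2 fell by 0.53 ± 0.16 over both sexes (limma adjusted p = 0.0104) and in females by 0.80 ± 0.23 (adjusted p = 0.00772), and males gave -0.25 ± 0.23 (adjusted p = 0.421). Under scaling to all reads its change over both sexes was 0.03 (adjusted p = 0.893), and with the length and base composition trend removed it was -0.23 (adjusted p = 0.203). The female call was lost without CV female 2 (adjusted p = 0.0539).

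Over both sexes, then, 2 of the 9 tested genes were higher in CV (Cry1 and Nr1d1) and 5 lower (Arntl, Clock, Per1, Per2 and Nr1d2), with a median change of -0.56. Of all 11782 genes tested, 32.3% were called higher and 28.7% lower, with a median of 0.08. In males 0 of 9 were higher by limma and 4 lower, against 14.1% and 15.4% of all genes. In females 1 was higher and 4 were lower, against 29.8% and 26%. Groups failed to overlap for 5 of the 9 tested genes in males and 6 in females, where 43% and 64.9% of all genes did the same. The count of clock genes called lay near the background in females, as did the count without overlap. With only 9 genes, the counts over both sexes and in males were not tested against the background.

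**Figure D3:**
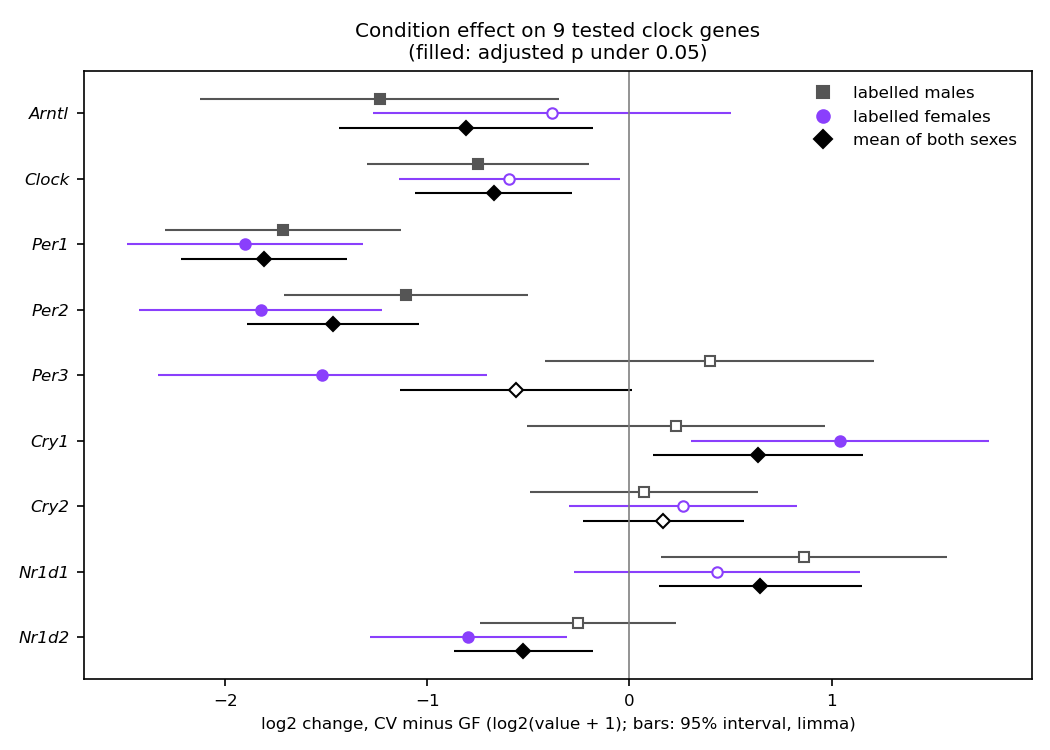
Log2 change (CV minus GF on log2(normalised count + 1)) of the 9 tested clock genes with 95% intervals from limma, for labelled males, labelled females and their mean. Filled symbols passed an adjusted p of 0.05, and Per1 (-1.72 in males, -1.90 in females) and Per2 (-1.11 and -1.83) are the genes filled in both sexes.

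The condition effect was next compared between the sexes. The limma interaction called 0 of the 9 genes and 0% of all genes, with 1382 genes at an unadjusted p under 0.05. By edgeR the interaction called 0 genes with the filter and, without it, 57 with a more positive effect in males and 48 with a more negative effect, and by DESeq2 13 and 11. Per3 had the largest interaction among the members, 1.92 ± 0.54 (males minus females), with an unadjusted p = 0.00272 and a limma adjusted p = 0.417, and it was the only member under 0.05 unadjusted. It passed with edgeR without a filter (2.07, adjusted p = 4.18e-04) and without the library labelled CV male 1 (2.38, adjusted p = 0.0327), and was -0.26 with the abundant-loci share as a covariate. Between males and females over both conditions, limma called 0 of the 9 genes and 1.16% of all genes. No member was under 0.05 unadjusted there, edgeR and DESeq2 called 0 members, and the lowest unadjusted p was 0.102 (Nr1d2).

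As a sign of clock phase, the activator mean (Arntl, Clock and Npas2 on log2(normalised count + 1)) was set against the mean of the 7 Per, Cry and Nr1d genes. These means over genes are descriptions with no test. In males the difference was -2.42 ± 0.60 in GF (SD, n = 3) and -3.50 ± 0.31 in CV, a shift of -1.08 with no overlap. In females it was -2.90 ± 0.32 and -3.22 ± 0.23, a shift of -0.32 with overlap, which was 0.00165 with a pseudocount of 5. Both shifts include Npas2, whose counts were too low for the main test, and the shift without Npas2 was not computed. In females Arntl (-0.38) and Clock (-0.59) each fell by less than the mean of the 7 genes (-0.62), so the negative female shift rests on Npas2. In males Arntl (-1.24) and Clock (-0.75) each fell by more than the mean of the 7 genes (-0.22).

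The 7 genes did not move as a unit, so the sum hides the pattern. The activator mean was lower in CV by 1.29 in males (5.14 against 3.85) and by 0.94 in females (4.94 against 4.00), with no overlap in either. Of its genes Npas2 moved most, by -1.90 in males and -1.84 in females at a minimum mean of 1. In females neither Arntl (-0.38) nor Clock (-0.59) passed, so the female activator mean leans on Npas2. The Per mean was lower too, 7.78 against 6.97 in males and 8.25 against 6.50 in females. The Cry mean was higher, 6.25 against 6.41 and 6.11 against 6.77. In males the Cry groups barely parted (highest GF 6.3675, lowest CV 6.3696), and neither Cry1 nor Cry2 passed (limma adjusted p = 0.643 and 0.860). Scaled to reads outside the abundant loci, the male changes of Cry1 and Cry2 were negative (-0.06 and -0.23). The Nr1d mean overlapped, 8.55 against 8.85 and 8.95 against 8.77. Arntl minus Nr1d1, a ratio within each library that no scaling alters apart from the added pseudocount, was -3.66 ± 0.33 in GF males and -5.76 ± 0.75 in CV males, with no overlap. In females it was -4.25 ± 0.88 and -5.07 ± 0.33, with overlap. Per1 minus Nr1d1 was the only other pair compared, and it was not a planned one. It moved further than Arntl minus Nr1d1, from -0.11 ± 0.60 to -2.69 ± 0.65 in males and from -0.04 ± 0.64 to -2.37 ± 0.37 in females. It had no overlap in either sex.

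**Figure D4:**
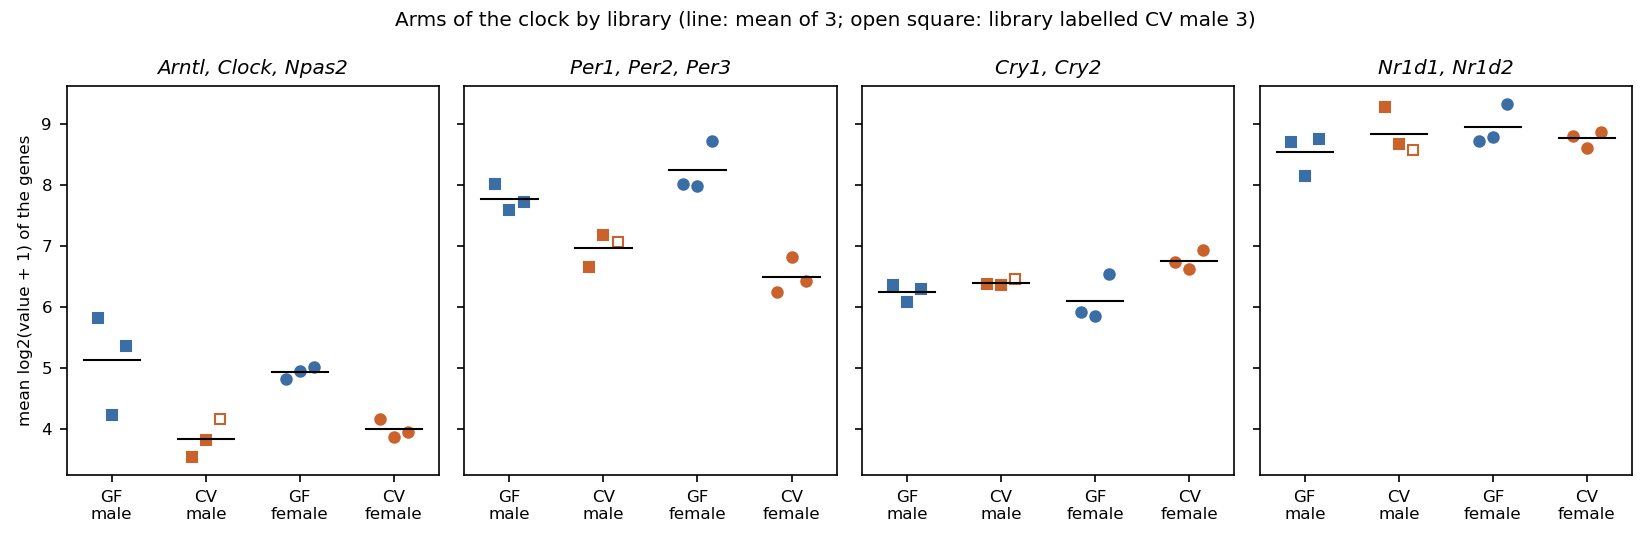
Mean log2(normalised count + 1) of the activators (with Npas2, too low for the main test), the Per genes, the Cry genes and the Nr1d genes in each library, with the mean of 3 as a line. The activator and Per means are lower in CV in both sexes (by 1.29 and 0.81 in males), and the Nr1d means overlap. The Cry mean is higher by 0.65 in females and by 0.15 in males, where the groups barely part and neither Cry gene passed.

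Levels of different genes were compared per kilobase of merged exon. In GF the order of medians over 6 libraries was Nr1d1 (136.6 normalised counts per kb), Per1 (78.5), Nr1d2 (77.9), Cry2 (36.8), Per2 (36.2), Per3 (17.4), Clock (12.6), Cry1 (7.00), Arntl (3.88) and Npas2 (1.72). Only Nr1d2 and Cry2, and Clock and Cry1, were neighbours whose ranges did not overlap. In CV the order was Nr1d1 (210.5), Nr1d2 (54.3), Cry2 (41.8), Per1 (20.5), Per2 (14.5), Cry1 (11.8), Per3 (10.2), Clock (7.77), Arntl (1.93) and Npas2 (0.21). There the ranges did not overlap for Nr1d1 and Nr1d2, Cry2 and Per1, Clock and Arntl, or Arntl and Npas2. Per1 thus stood level with Nr1d2 in GF and below both Nr1d2 and Cry2 in CV.

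Within groups the 9 tested genes varied with a pooled SD of 0.22 (Nr1d2) to 0.58 (Per3) on the log2 scale. Over the 12 libraries, deviations from group means gave Pearson r from -0.705 (Clock with Cry2) to 0.713 (Cry2 with Nr1d1), and 0.158 for Arntl with Nr1d1. The genes whose deviations were most like those of Arntl were Ptger2 (r = 0.969), Hmgxb4 (0.966), C2cd3 (0.958), Letm2 (0.945) and Ccl25 (0.933). Among those most like Nr1d1 were Ctsa (0.972), Gnpda1 (0.955), Nrbp1 (0.952) and Mark2 (0.950). These points share library depth and composition, and the r values are descriptions.

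A list of 33 further genes of the clock pathway was written with earlier results of these data known, and 32 were tested. Over both sexes 8 were higher in CV, 11 lower and 13 did not pass, with a median of 0.16, against the 32.3% higher and 28.7% lower among all genes, a background near these counts. The E-box repressor Bhlhe40 rose by 1.39 ± 0.22, and the PAR bZIP factors Dbp, a direct target of the activators, and Hlf by 1.29 ± 0.24 and 0.88 ± 0.16 (limma adjusted p = 6.30e-05, 2.60e-04 and 1.76e-04). Usp2, a deubiquitinase, rose by 1.27, Wee1, a cell cycle kinase, by 1.33, Nampt, an enzyme of NAD synthesis, by 0.62, and Nono, a PER-binding protein, by 0.60. Rora, an activator of Arntl, rose by 0.42 but was -0.04 when scaled to reads outside the abundant loci. Tef, another PAR bZIP factor, fell by 0.53 but was 0.03 when scaled to all reads.

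Of the 10 chromatin and binding partners, 7 were lower and 1 higher over both sexes, where 28.7% and 32.3% of all genes were. Timeless fell by 1.88 ± 0.24, Kdm5a, a histone demethylase, by 1.70 ± 0.19, and Sfpq, a partner of NONO, by 1.67 ± 0.19 (limma adjusted p = 9.53e-06, 2.91e-06 and 3.26e-06). The acetyltransferase genes Ep300 and Crebbp fell by 1.17 and 0.87, the corepressor Ncor1 by 0.98, and the deacetylase Sirt1 by 0.95. Among outputs Noct, which encodes nocturnin and is rhythmic in liver, fell by 2.65 ± 0.19 (adjusted p = 2.21e-07) and Pfkfb3, a regulator of glycolysis, by 1.79 ± 0.19 (adjusted p = 2.32e-06). None of the 4 clock protein kinases passed with limma, of which 1 (Csnk1e, -0.57) was under 0.05 unadjusted. Males had 7 higher and 8 lower of the 32 (14.1% and 15.4% of all genes), and females 3 and 11 (29.8% and 26% of all genes). In males Bhlhe41 (2.42) also rose, and in females it gave -0.79, which did not pass.

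The scaling of libraries mattered for direction. The median change of all genes over both sexes was 0.08 as deposited, 0.64 when libraries were scaled to all reads, -0.40 when scaled to reads outside the abundant loci and 0.03 with TMM. The 3807 genes called higher and 3387 lower became 5954 and 1565 with all reads, and 2142 and 4984 with reads outside the abundant loci. Scaling shifts all genes of a library alike, so changes relative to those medians hardly move by construction. Per1 was -1.88 as deposited and -1.89 with all reads, Per2 -1.54 and -1.55, Clock -0.75 and -0.75, and Nr1d1 0.57 and 0.57. Removing the length and base composition trend is no such rescaling. Relative to the median Per1 was then -1.52, Per2 -1.06, Clock -0.01 and Nr1d1 0.34. Per1 and Per2 were lower in CV in all 29 alternatives tried, and over both sexes they lost the call only with the mitochondrial ribosomal RNA share or the abundant-loci share as a covariate. These shares lay 93.5% and 95.3% between the groups, so that fits with them hold little information on the condition. They called 0 of the 9 genes, where nearly no gene at all was called. Over both sexes the mitochondrial share left 0 of all 11782 genes called, and the abundant-loci share 0 higher and 7 lower.

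**Figure D5:**
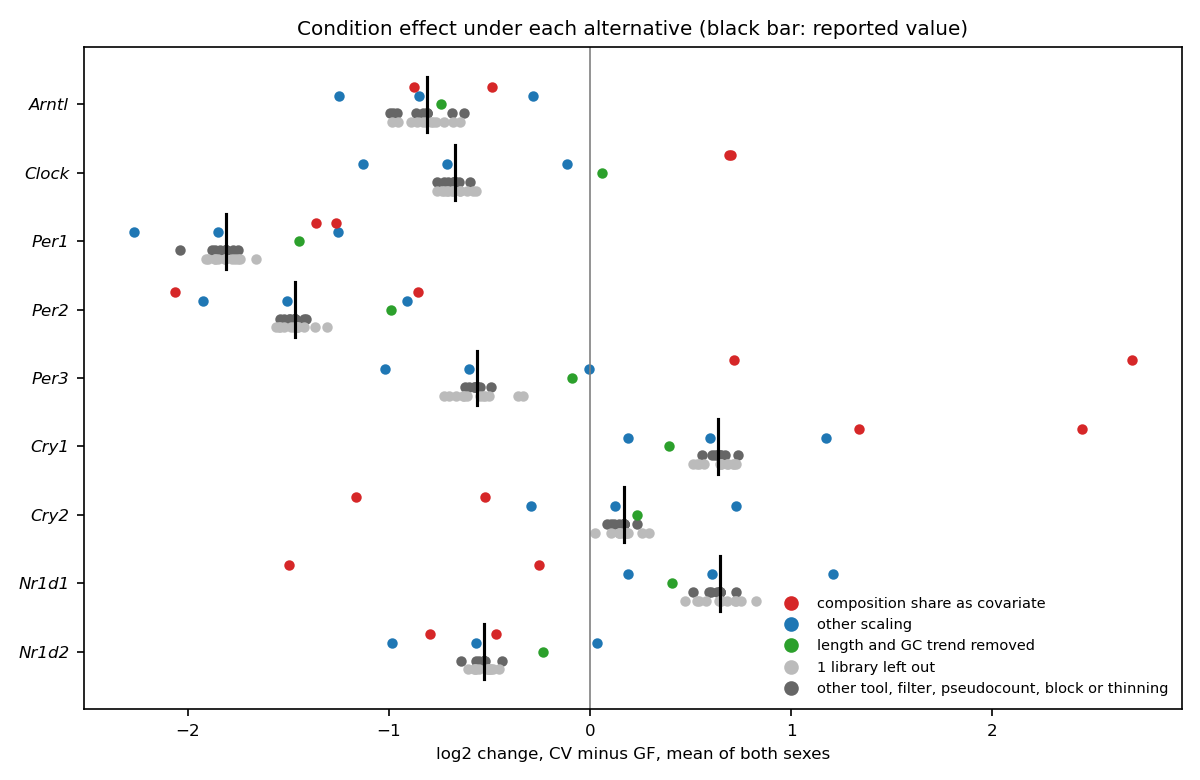
Log2 change over both sexes (CV minus GF) of the 9 tested clock genes under each alternative (points, coloured by kind) and as reported (black bar). Per1 and Per2 stay below 0 throughout, while Clock reaches 0.70 and Per3 2.70 with a composition share as a covariate and Nr1d1 reaches -1.50.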

How the data were processed

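Liver RNA was sequenced from stranded mRNA libraries of 12 mice, whose titles gave the group and replicate number. Per the submitters' processing notes, HTSeq 0.6.1p1, DESeq2 and GRCm38 were used. The aligner, annotation and strand setting are not given in the sources used here. The deposited signal values were read counts that the authors divided by 1 size factor per library. All values returned whole reads (within 0.01 reads), and the factors equalled DESeq2's over 12512 genes with reads in all libraries. The table came with the series under a paper that describes other work, which was not used.

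limma 3.58.1 (R 4.3.3) was fitted to log2(value + 1) with 4 group means and an intensity trend over 11782 genes with a mean of at least 10, adjusting by Benjamini-Hochberg at 0.05. Since this unit is not raw counts, edgeR 4.0.16 and DESeq2 1.42.0 on the recovered reads served as alternatives, with other filters, pseudocounts, scalings, covariates, a length and GC trend, thinning to 1834565 reads and each library left out. The abundant-loci covariate was chosen after seeing the data. Fitting was tested on simulated data. Levels per kilobase used merged exons of GENCODE M21, and 9 of 10 genes matched a RefSeq promoter. The members, pathway and marker lists and tests were chosen with earlier results of these data known. All 10 members were described whatever their values, any of the 33 pathway genes could be named, and the alternatives are given for all of the 32 tested except 2 genes whose own results are not reported here. The genes most like Arntl and Nr1d1 were the 5 with the highest r, predicted genes left out. Nothing states separate litters or cages, so p-values measure the spread between these mice.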

Additional observations from a re-analysis of the deposited data

Results flagged for a closer look

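Of 22 sets of 6 libraries (the members' values and the arm measure, each within a condition), 4 held a library whose gap to its nearest neighbour exceeded 0.625 of the whole range. For normal values of the same group chance gives about 1 in 20 such sets. The members' values were not logged here and each set held both labelled sexes, so that rate is only a rough guide. GF female 3 read 348.9 normalised counts of Per2, against 178.2 to 223.6 in the other GF libraries. The same library read 467.7 of Per3, against 98.5 to 220.8, and it had the largest share of reads in the abundant loci. CV male 1 read 1199 of Nr1d1, against 550.6 to 662.3 in the other CV libraries. The library labelled CV male 3, whose Xist and Y-linked reads go against its label, read 187.2 of Cry2, against 250.6 to 287.8.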

How the results depend on the processing

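Of the 9 tested members 7 were called over both sexes, 4 in males, 5 in females and 0 for the interaction (limma). With either composition share as a covariate 0 were called in all 3 condition comparisons. Of all 11782 genes these fits called 0 higher and 0 or 7 lower over both sexes. In males they called 2 higher and 1 or 11 lower, and in females 0. With the length and GC trend removed 3 were called over both sexes and 3 in females. Of all 11731 genes 3633 were then higher and 2981 lower over both sexes, and 3293 and 2580 in females. After thinning 4 were called over both sexes and 2 in males, and at an adjusted p of 0.01 3 and 1. Of all 11833 genes thinning left 3052 higher and 3401 lower over both sexes, and 1141 and 1427 in males. The count over all genes at 0.01 is not given here. In males 2 were called with no filter, with scaling to all reads and with a replicate block. Among all genes in males these settings called 1238 higher and 1640 lower of 22953, 2831 and 771 of 11746, and 1212 and 1391 of 11782. Leaving out 1 library gave 5 to 8 members over both sexes, 2 to 5 in males, 4 to 6 in females and 0 to 1 for the interaction. Among all genes it gave 3492 to 3963 higher and 3084 to 3466 lower over both sexes. Males had 725 to 1912 and 870 to 1965, and females 2964 to 3717 and 2586 to 3285. The interaction had at most 100 and 182, both without CV male 1. edgeR without a filter called 1 interaction (Per3). The arm difference was -0.28 in males and 1.54 in females with the mitochondrial rRNA covariate, and 0.00165 in females with a pseudocount of 5. Leaving out a library gave -1.41 to -0.83 in males and -0.50 to -0.20 in females. Same-numbered GF and CV libraries did not deviate together (correlations -0.228 to 0.019), and same-numbered males and females gave 0.059 to 0.403 in GF and 0.118 to 0.193 in CV, so the numbers were not taken to pair mice across conditions. The replicate block called 6 members over both sexes (without Cry1, adjusted p = 0.0570), 5 in females and 2 in males (without Arntl and Clock, adjusted p = 0.0575 and 0.0861). Apart from the settings' own construction, the cause of a change was not tested.

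Directions reversed as follows (log2, over both sexes unless said). With the mitochondrial rRNA covariate the values were Clock 0.69, Per3 0.72, Cry2 -1.16, Nr1d1 -1.50, Ciart -1.84, Dbp -0.044, Nfil3 -1.29, Csnk1a1 0.34, Csnk1d -1.34, Gsk3b 0.0079, Btrc -2.03, Fbxw11 -0.75, Hdac3 -1.65, Nono -0.40 and Wdr5 -1.26, in males Clock 0.0682, Cry2 -0.73 and Nr1d1 -0.42, and in females Arntl 0.0663, Clock 1.31, Per3 0.27, Cry2 -1.60 and Nr1d1 -2.57. With the abundant-loci covariate they were Clock 0.70, Per3 2.70, Cry2 -0.52, Nr1d1 -0.25, Bhlhe40 -0.28, Ciart -1.61, Tef 0.29, Nfil3 -1.22, Csnk1a1 0.22, Csnk1d -1.08, Csnk1e 0.89, Btrc -1.57, Fbxw11 -0.71, Ncor1 0.28, Hdac3 -0.53, Crebbp 0.34, Nono -0.51, Sfpq 0.13, Wdr5 -2.41 and Timeless 0.51, in males Clock 0.17 and Cry2 -0.39, in females Clock 1.24, Per3 2.83, Cry2 -0.65 and Nr1d1 -0.77, and -0.26 for the Per3 interaction. With the length and GC trend removed they were Clock 0.0612, Ciart -0.056, Nfil3 -0.43, Csnk1a1 0.12, Gsk3b 0.37 and Wdr5 -0.20, and Clock 0.40 in females. Scaled to reads outside the abundant loci they were Cry2 -0.29, Rora -0.0374, Nfil3 -0.38, Csnk1d -0.20, Fbxl21 -0.0473, Btrc -0.15, Fbxw11 -0.086, Hdac3 -0.22 and Wdr5 -0.38, in males Cry1 -0.0593 and Cry2 -0.23, and in females Cry2 -0.35 and Nr1d1 -0.19. Scaled to all reads they were Nr1d2 0.0335, Tef 0.0295, Csnk1a1 0.50 and Gsk3b 0.33, in males Nr1d2 0.0565, and in females Arntl 0.38, Clock 0.21 and Nr1d2 0.0105. After thinning Nfil3 was -0.23 and Wdr5 -0.009, and with edgeR without a filter Csnk1a1 was 0.0267. Leaving out 1 library gave ranges that crossed 0 for Nfil3 (-0.061 to 0.21, negative without CV male 1 or CV female 3), Wdr5 (-0.093 to 0.22, negative without CV male 1 or GF female 3), Fbxl21 (-0.0967 to 0.64, negative without GF female 2), Cry1 in males (-0.0143 to 0.39, negative without CV male 3), Cry2 in males (-0.0585 to 0.25, negative without CV male 1) and Cry2 in females (-0.0201 to 0.52, negative without GF female 2). Depth limits Npas2 (1 to 19 reads), Arntl (6 to 55) and Cry1 (8 to 98).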
